A study of Arabidopsis thaliana with 3 samples.

Results

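In wild-type Arabidopsis thaliana seedlings, 1764 nuclear genes were at least 2-fold higher after salt treatment and are called salt-raised, and 88 of them were at least 2-fold higher again in the salt-treated skip mutant. These 88 genes, of 33557 in all, are described here. They were chosen on the measured values: a nuclear gene is a member when the log2 ratio of FPKM + 1 was at least 1 in salt-treated over untreated wild type, and at least 1 in salt-treated skip over salt-treated wild type, with 5 FPKM or more in at least 1 of the 4 columns. FPKM is a read count divided by the length of the transcript and by the size of the library. The samples were seedlings of 11 days. The group skip-S is the skip mutant after 4 h of 200 mM NaCl, given in MS liquid medium. The group WT-S is wild type after the same salt treatment, and WT-0 is wild type in MS liquid medium alone. The labels do not name the skip allele, and an untreated skip group was not analysed here, so a difference between skip-S and WT-S cannot be divided into a salt response and a difference that is there without salt. Each group has 1 value per gene and table, in which the authors merged replicates 1 and 2, so the spread between replicates is not known here and differences are described without tests. Since both ratios chose the members, they are given as a description, and WT-S stands in both of them.

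SKIP is a protein of the spliceosome that also acts in transcription, and the title of the series places it in salt tolerance through splicing. Several of the members belong to the response of plants to failing mitochondria. When electron transport in mitochondria is impaired, NAC transcription factors held in the membrane of the endoplasmic reticulum are released to the nucleus, bind the mitochondrial dysfunction motif in promoters, and switch on genes such as AOX1A. The alternative oxidase made by AOX1A passes electrons to oxygen past the cytochrome pathway and so limits the formation of reactive oxygen. UDP-glycosyltransferases, glutathione S-transferases, cytochromes P450 and efflux carriers often respond with it, and they modify reactive or foreign compounds and move them out of the cytosol.

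In the whole tables, SKIP (AT1G77180) itself was listed at 41.6 FPKM in skip-S, against 49.0 FPKM in WT-S, and at 54.2 FPKM in WT-S, against 39.2 FPKM in WT-0. WT-S occurs in both tables, where its values differed by a median factor of 1.105, so each ratio was formed within a table. Among markers of tissue, the 6 shoot genes were between 905 and 11183 FPKM in skip-S, and 0 of them passed the 2-fold limit in either comparison. The 7 root markers were all at least 2-fold lower in WT-S than in WT-0, with summed levels of 27.5 FPKM in WT-S and 161.8 FPKM in WT-0. Their summed level was 26.4 FPKM in skip-S and 24.9 FPKM in WT-S, and 0 of 7 passed the limit there. The 4 seed markers summed to 0.701 FPKM in skip-S and 1.20 FPKM in WT-S. In the other table they summed to 1.33 FPKM in WT-S and 5.92 FPKM in WT-0, and 2 of the 4 were at least 2-fold lower in WT-S. The part of tissue proportions in the ratios below was not tested, and in bulk seedling RNA fewer cells of a type and less RNA per cell cannot be told apart. The tables give no counts, and low values lay near even steps only in part, in WT-0 for 55.1% of values. Evenly spread values would give 30% at a step fixed beforehand, but the step was chosen to make this share largest. If a step is 1 fragment, which these values do not settle, the median member rested on roughly 169 fragments in WT-0 and 10 members on fewer than 10.

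The promoters of the members held the mitochondrial dysfunction motif more often than promoters in general. This is a measure that the rule did not use. The motif, searched as CTTG, then 5 bases of any kind, then CA, on both strands in the 300 bases before the annotated start of each gene, was found for 27 of the 86 members with a RefSeq promoter, or 31.4%. Among the other salt-raised genes the share was 9.29% (152 of 1637), among genes higher in skip that were not salt-raised it was 18.3% (41 of 224), and among all 27443 protein-coding promoters it was 9.62%. At least 2 separate sites were found in 9.30% of member promoters (8 of 86), in 0.489% of the other salt-raised promoters and in 0.565% of all promoters. The 27 were 3 of the 8 members known from the response to mitochondrial stress, named further on, and 24 of the 78 others with a promoter. The members include 21 that met 5 FPKM in skip-S alone, BSMT1 among them, and the motif share without these was not counted. A match is a string of letters and not a shown binding site. The following 4 promoters are from the 5 members with the largest skip-S over WT-S ratio among those with a match and with no other annotated gene in the window. They come from RefSeq, assembly TAIR10.1, and run 5′ to 3′ on the strand of the gene up to the base before its annotated start, with the matches in capitals.
AT2G04050 chr2:1339469-1339768, minus strand: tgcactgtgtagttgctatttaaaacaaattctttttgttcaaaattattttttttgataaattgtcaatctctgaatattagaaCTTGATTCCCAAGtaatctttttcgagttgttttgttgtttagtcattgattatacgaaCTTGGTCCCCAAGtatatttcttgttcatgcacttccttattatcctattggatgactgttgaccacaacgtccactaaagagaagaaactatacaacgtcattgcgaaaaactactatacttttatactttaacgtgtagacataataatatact
AT2G18193 chr2:7919346-7919645, minus strand: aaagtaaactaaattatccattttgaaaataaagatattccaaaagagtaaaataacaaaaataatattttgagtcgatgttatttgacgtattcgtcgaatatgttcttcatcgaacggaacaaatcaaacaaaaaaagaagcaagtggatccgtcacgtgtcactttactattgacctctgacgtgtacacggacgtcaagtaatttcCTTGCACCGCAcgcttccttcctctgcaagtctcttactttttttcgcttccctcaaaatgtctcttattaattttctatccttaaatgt
BSMT1 AT3G11480 chr3:3614121-3614420, plus strand: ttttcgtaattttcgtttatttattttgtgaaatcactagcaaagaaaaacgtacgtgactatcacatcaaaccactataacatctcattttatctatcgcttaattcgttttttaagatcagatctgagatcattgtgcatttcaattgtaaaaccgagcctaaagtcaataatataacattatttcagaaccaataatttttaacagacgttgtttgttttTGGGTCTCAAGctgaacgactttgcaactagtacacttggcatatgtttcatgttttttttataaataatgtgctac
CRF6 AT3G61630 chr3:22804698-22804997, plus strand: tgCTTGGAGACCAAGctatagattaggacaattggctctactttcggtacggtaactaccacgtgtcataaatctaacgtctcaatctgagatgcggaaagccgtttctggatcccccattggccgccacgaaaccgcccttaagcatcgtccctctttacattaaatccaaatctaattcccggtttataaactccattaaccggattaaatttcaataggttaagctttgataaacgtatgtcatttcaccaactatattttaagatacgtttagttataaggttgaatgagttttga
In AT2G04050 the letters occurred at a pair of places, 205 to 215 and 146 to 156 bases before the start. Each was overlapped by a match on the other strand. The outer letters CTTG and CAAG thus read alike from both sides, while the 5 bases between them do not. CRF6 carried a site of the same form, while BSMT1 and AT2G18193 carried a match on 1 strand.

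For the other 8 motifs, searched in the same windows on both strands, members and other salt-raised genes differed by fewer percentage points. ACGTG, the core of the element bound by factors of abscisic acid signalling, was found in 51.2% of member promoters, 42.7% of other salt-raised promoters and 25.6% of all. The G box CACGTG, which ends in ACGTG and so counts for both, had shares of 23.3%, 17.4% and 7.09% in the same order. TTGAC, the core of the W box bound by WRKY factors, was found in 72.1%, 55.2% and 50.4%, and in 2 members it overlapped the mitochondrial motif. GCCGCC, the GCC box of ERF factors, was found in 5.81% (5 of 86), 1.59% (26 of 1637) and 2.26%. As a ratio of members to other salt-raised genes, its shares differed no less than those of the mitochondrial motif, on few promoters. The heat shock core GAANNTTC was found in 18.6%, 12.9% and 11.5%. The drought and cold core CCGAC was found in 18.6%, 19.2% and 13.9%. The TGA core TGACGT had shares of 12.8%, 12.2% and 8.72%, and the evening element AAAATATCT of clock-regulated genes 2.33%, 4.34% and 2.79%.

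**Figure D1:**
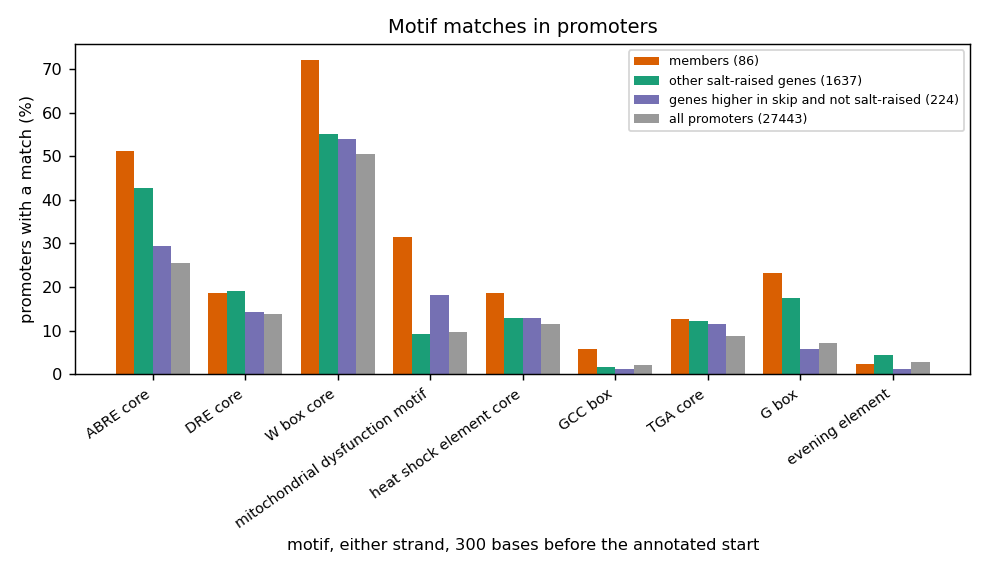
Share of promoters with at least 1 match on either strand, for 9 motifs (x axis, in % on the y axis), in 86 member promoters, 1637 other salt-raised promoters, 224 promoters of genes higher in skip but not salt-raised, and all 27443 protein-coding promoters. The mitochondrial dysfunction motif stands at 31.4% in members, against 9.29% in the other salt-raised genes and 9.62% in all promoters.

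Seen against the whole table, 11.0% of the 15974 nuclear genes with 5 FPKM or more in a column were at least 2-fold higher in WT-S than in WT-0, and 2.03% were at least 2-fold higher in skip-S than in WT-S. The 88 members were 4.99% of the 1764 salt-raised genes, while 245 of the same genes, or 13.9%, were at least 2-fold lower in skip-S, against 4.76% of all 15974. Of the 14210 genes that were not salt-raised, 1.67% were higher in skip-S. These shares describe how the members were chosen, since they come from the same ratios. Among the members the median log2 ratio was 1.34 (range 1.01 to 4.32) for skip-S over WT-S and 1.70 (range 1.004 to 4.47) for WT-S over WT-0. Over all 15974 genes the medians were -0.09 and 0.02. In 32 of the 88 members the log2 ratio for skip was larger than that for salt. For members near 0 in WT-0 this order depends on the 1 added to FPKM, and the count was not repeated with another added value. A 4-fold limit was passed by 20 members for skip, 26 for salt and 8 for both. Shares of all genes at this limit were not counted, so these numbers describe the members alone. The median log2 salt ratio of the other salt-raised genes was 1.72, close to that of the members.

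The median level of the members was 36.2 FPKM in skip-S and 13.5 FPKM in WT-S in the table of those groups, and 14.9 FPKM in WT-S and 2.56 FPKM in WT-0 in the other. In skip-S 23 members were above 100 FPKM, while in WT-S the only such member was AOX1A. For 21 members the level of 5 FPKM was met in skip-S alone, so these entered through the group in which they were high, and all 21 were below 1 FPKM in WT-0. Of the 67 members that met the level in a wild-type column, 8 were below 1 FPKM in WT-0, or 11.9%, beside 11.0% of the other salt-raised genes. Just 1 member had a value of exactly 0: AT1G32880 was listed at 0 in WT-0, with 2.52 FPKM in WT-S. The sum of both log2 ratios, which sets skip-S against WT-0 across the separately scaled tables, had a median of 3.20 and ran to 6.52 for AT2G04050.

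**Figure D2:**
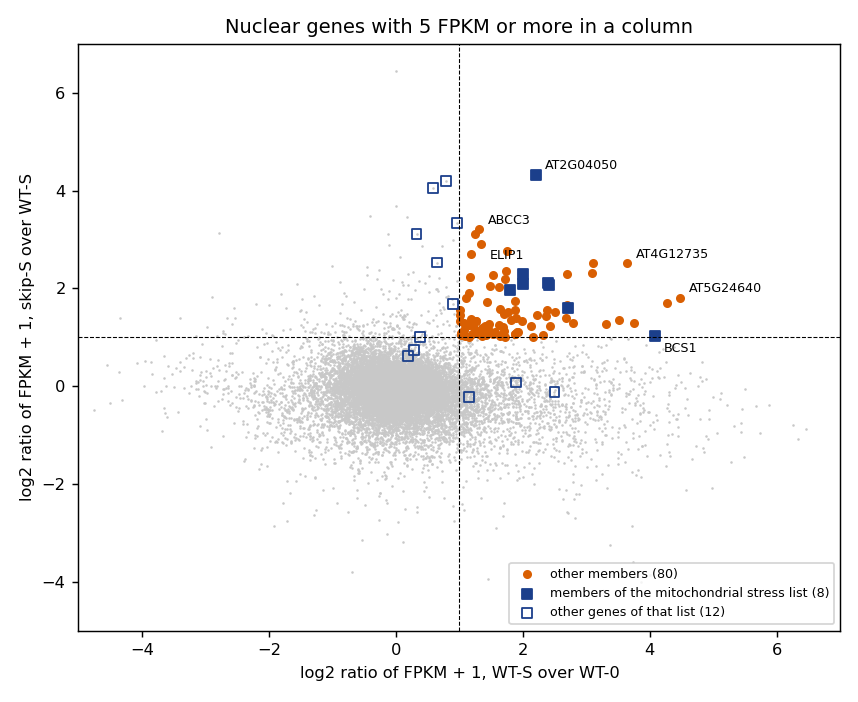
Log2 ratio of FPKM + 1 in WT-S over WT-0 (x axis) and in skip-S over WT-S (y axis) for 15974 nuclear genes, with 9 genes outside the axes, which run from -5 to 7. The 88 members fill the upper right field beyond the dashed limits at 1, and AT2G04050 is the highest of them, while several open squares of the mitochondrial stress list lie above the horizontal limit but left of the vertical one.

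Genes that act in mitochondria included both alternative oxidases of the set. AOX1A (AT3G22370), the main stress-induced alternative oxidase, was listed at 543 FPKM in skip-S, against 127 FPKM in WT-S, and 140.3 FPKM in WT-S, against 34.2 FPKM in WT-0. Its log2 ratios were 2.09 for skip and 2.004 for salt, and its skip-S level was the second highest of all members. AOX1D (AT1G32350), a further copy of the same enzyme family, was listed at 21.95 FPKM in skip-S, against 2.36 FPKM in WT-S, and 2.602 FPKM in WT-S, against 0.0673 FPKM in WT-0. Its log2 ratios were 2.77 for skip and 1.75 for salt. It was close to 0 in WT-0, so the order of these ratios depends on the 1 added to FPKM. BCS1 (AT3G50930), an ATPase of the outer mitochondrial membrane, was listed at 136 FPKM in skip-S, against 65.7 FPKM in WT-S, and 72.6 FPKM in WT-S, against 3.37 FPKM in WT-0. The log2 ratios of BCS1 were 4.08 for salt, the third largest of the members, and 1.03 for skip, just inside the limit. DIC3 (AT5G09470) is a dicarboxylate carrier of the inner membrane, and MTM1 (AT4G27940) a carrier protein linked to manganese superoxide dismutase. Their log2 ratios were 1.17 and 1.07 for skip and 1.44 and 1.30 for salt. Both held the mitochondrial dysfunction motif in their promoters, while the promoter windows of AOX1A, AOX1D and BCS1 held no match.

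A list of 21 genes known to respond to mitochondrial stress was set beside the members. It was assembled with earlier results of these data known, so its counts are a description and no support. Of its genes, 20 reached 5 FPKM in a column, and 15 of these were at least 2-fold higher in skip-S, where 2.03% of all 15974 genes were. At least 2-fold lower in skip-S were 0 of the list and 4.76% of all genes, and at least 2-fold higher with salt were 11 of the list and 11.0% of all genes. The median log2 ratios of the 20 were 2.02 for skip and 1.48 for salt. The 8 that met both limits were AT2G04050, AT5G43450, SOT12, AOX1A, NAC13, CRF6, UGT74E2 and BCS1. Of these, AT2G04050, AT5G43450 and CRF6 held the letters of the mitochondrial dysfunction motif in the promoter window. SOT12, AOX1A, NAC13, UGT74E2 and BCS1 did not.

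The remaining list genes failed mostly on the salt side. AT2G21640, annotated as a marker of the oxidative stress response, was listed at 240.4 FPKM in skip-S, against 12.2 FPKM in WT-S, and 13.4 FPKM in WT-S, against 7.35 FPKM in WT-0, and so missed the salt limit at 0.79 while its skip ratio was 4.20. AT5G51440, a small heat shock chaperone, came closest, with a salt ratio of 0.96 and a skip ratio of 3.34. AT2G04070, DTX1, NDB4, NDA1 and AT5G09570 also passed the skip limit alone. On the other side, the external NAD(P)H dehydrogenase NDB2 was listed at 89.6 FPKM in skip-S, against 84.8 FPKM in WT-S, and 93.7 FPKM in WT-S, against 24.5 FPKM in WT-0, so it passed the salt limit, with a skip ratio of 0.08. SAG21 and NDA2 likewise passed the salt limit, with skip ratios of -0.12 and -0.23. NAC017, which encodes the factor that relays the mitochondrial signal, passed neither limit, with 0.74 for skip and 0.29 for salt, and nor did AT2G41380. TIM17-1 stayed below 5 FPKM in every column. The letters of the mitochondrial dysfunction motif were thus not confined to the members of the list. They were also found for the non-members NDA1, NAC017, DTX1, AT2G21640, SAG21, NDB2, AT5G09570 and AT5G51440. AT2G04070, NDB4, NDA2, AT2G41380 and TIM17-1 had no match.

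**Figure D3:**
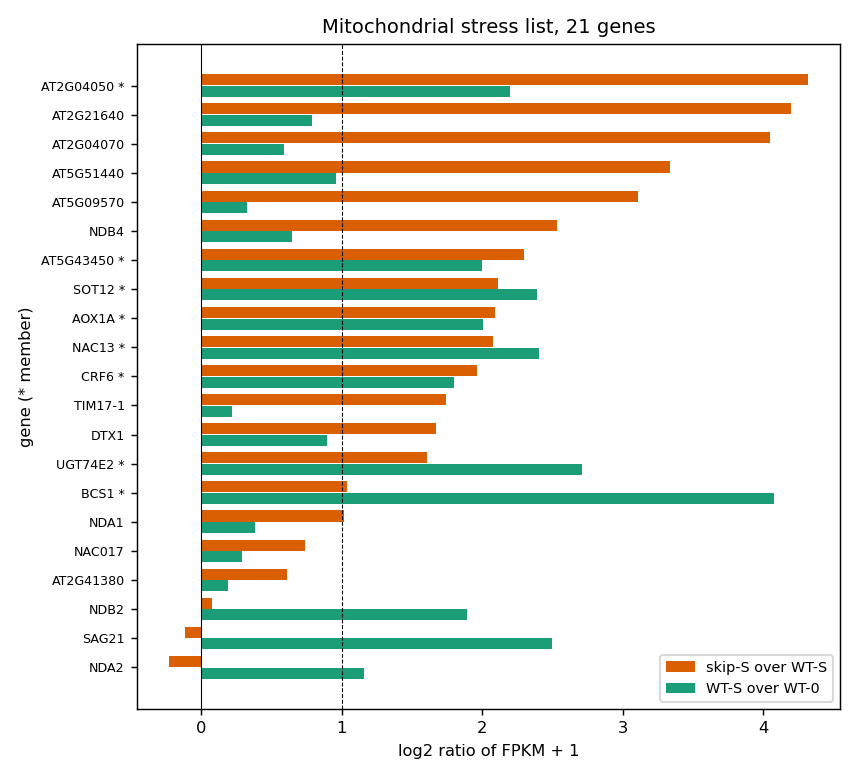
Log2 ratios of FPKM + 1 for the 21 genes of the mitochondrial stress list, ordered by the skip-S over WT-S ratio (upper bar of each pair) with WT-S over WT-0 below it. Stars mark the 8 members, whose bars both pass the dashed limit at 1, while AT2G21640, AT2G04070 and AT5G51440 have long upper bars and lower bars short of the limit.

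Transport and detoxification genes held the largest skip ratio. AT2G04050, a MATE efflux carrier, was listed at 258 FPKM in skip-S, against 11.9 FPKM in WT-S, and 13.2 FPKM in WT-S, against 2.08 FPKM in WT-0. With 20.03-fold for skip on the FPKM + 1 scale it exceeded the next member, ABCC3, by a factor of over 2 in fold. ABCC3 (AT3G13080), a vacuolar pump for glutathione conjugates and chlorophyll breakdown products, was listed at 279.7 FPKM in skip-S, against 29.4 FPKM in WT-S, and 32.5 FPKM in WT-S, against 12.5 FPKM in WT-0. CYP81D8 (AT4G37370), a cytochrome P450 induced by many stresses, was listed at 223 FPKM in skip-S, against 68.03 FPKM in WT-S, and 75.2 FPKM in WT-S, against 2.95 FPKM in WT-0. Here salt gave the larger part, with a log2 ratio of 4.27, the second largest of the members. UGT74E2 (AT1G05680), which glucosylates indole-butyric acid, an auxin, was listed at 203 FPKM in skip-S, against 65.99 FPKM in WT-S, and 72.9 FPKM in WT-S, against 10.3 FPKM in WT-0. Its relative UGT73C1 (AT2G36750), a glycosyltransferase known to act on cytokinins, was at lower levels, with 35.6 FPKM in skip-S, against 11.1 FPKM in WT-S, and 12.3 FPKM in WT-S, against 3.29 FPKM in WT-0. GSTU9 (AT5G62480), a glutathione S-transferase of the tau class, was the single member of its class of 24 at 5 FPKM, with 121 FPKM in skip-S, against 41.3 FPKM in WT-S, and 45.6 FPKM in WT-S, against 7.17 FPKM in WT-0.

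The sulfotransferase SOT12 (AT2G03760), known to act on salicylic acid and flavonoids, was listed at 332 FPKM in skip-S, against 75.99 FPKM in WT-S, and 83.96 FPKM in WT-S, against 15.2 FPKM in WT-0, the third highest level of the members in skip-S. AT5G43450, annotated as an oxygenase that depends on iron and 2-oxoglutarate, was listed at 247 FPKM in skip-S, against 49.4 FPKM in WT-S, and 54.6 FPKM in WT-S, against 12.9 FPKM in WT-0. Both kept nearly equal steps, with log2 ratios of 2.11 for skip and 2.39 for salt, and 2.30 and 1.999 for AT5G43450 in the same order. The remaining 5 genes of this role were MO1, annotated as a monooxygenase, AT5G52750 and AT5G52760, annotated in metal transport families, YSL2, a transporter of metals bound to nicotianamine, and the major facilitator gene AT1G68570, with log2 ratios from 1.11 to 1.46 for skip.

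Both early light-induced proteins, ELIP1 and ELIP2, which bind chlorophyll in thylakoids under light stress, were members. ELIP1 (AT3G22840) was listed at 621 FPKM in skip-S, against 81.9 FPKM in WT-S, and 90.5 FPKM in WT-S, against 35.2 FPKM in WT-0, and had the highest skip-S level of all 88. ELIP2 (AT4G14690) was listed at 245 FPKM in skip-S, against 27.4 FPKM in WT-S, and 30.3 FPKM in WT-S, against 12.2 FPKM in WT-0. Both ratios were larger for skip (2.91 and 3.12) than for salt (1.34 and 1.25), and neither promoter window held the mitochondrial dysfunction letters.

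**Figure D4:**
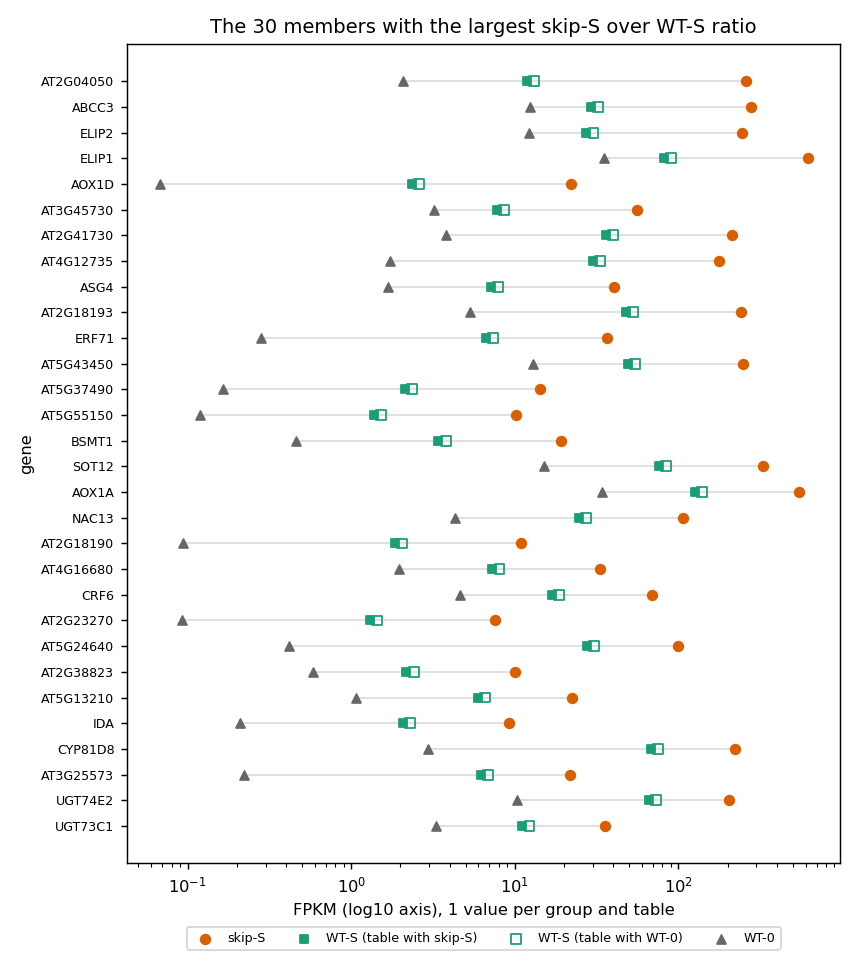
FPKM (x axis, log10) of the 30 members with the largest skip-S over WT-S ratio (y axis, largest at the top), with circles for skip-S, squares for WT-S in each of the 2 tables and triangles for WT-0. In every gene shown the circle lies right of the squares and the squares right of the triangle, as the rule requires. ELIP1 and AOX1A reach the highest circles, at 621 and 543 FPKM.

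Transcription factors made up 15 of the 88 members, with log2 ratios from 1.04 to 2.35 for skip and from 1.004 to 2.70 for salt. NAC13 (AT1G32870), a NAC factor that binds the mitochondrial dysfunction motif, was listed at 107 FPKM in skip-S, against 24.6 FPKM in WT-S, and 27.2 FPKM in WT-S, against 4.32 FPKM in WT-0. CRF6 (AT3G61630), a cytokinin response factor of the ERF family, was listed at 68.6 FPKM in skip-S, against 16.8 FPKM in WT-S, and 18.6 FPKM in WT-S, against 4.64 FPKM in WT-0. The largest skip ratio among factors was that of ASG4 (AT1G01520), a homeodomain-like factor related to the clock protein CCA1, with 40.7 FPKM in skip-S, against 7.16 FPKM in WT-S, and 7.92 FPKM in WT-S, against 1.68 FPKM in WT-0. CCA1 (AT2G46830), a dawn-expressed factor at the core of the circadian clock, was a member as well, with 1.15 for skip and 1.07 for salt. ERF71 (AT2G47520), a factor of the hypoxia response, was nearly silent in WT-0: it was listed at 36.6 FPKM in skip-S, against 6.63 FPKM in WT-S, and 7.33 FPKM in WT-S, against 0.283 FPKM in WT-0. BZIP60 (AT1G42990), a factor of the unfolded protein response in the endoplasmic reticulum, was the most abundant factor in skip-S, with 214 FPKM in skip-S, against 80.9 FPKM in WT-S, and 89.3 FPKM in WT-S, against 23.5 FPKM in WT-0.

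Factors with smaller skip ratios included WRKY25 (AT2G30250), which acts in heat and salt responses, with log2 ratios of 1.22 for skip and 2.12 for salt. NFXL1 (AT1G10170), a zinc finger factor of the salt and defence response, had 1.05 and 2.32 in that order. ZAT7 (AT3G46090), a zinc finger repressor of stress responses, and MYB47 (AT1G18710) had skip ratios of 1.34 and 1.56. BBX32, PTF1, BLH1, TT8, a bHLH factor of flavonoid synthesis, and the PLATZ family gene AT5G46710 complete the group. AT5G46710 and BLH1 shared 37.7% and 29.3% of their 50-base stretches with the annotated loci AT5G46700 and AT2G35945, so their values may hold reads of those loci. No other annotated member shared 20% or more, and AT1G68570 followed with 16.3%.

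Hormone and signalling genes numbered 12 and ran from 5.57 to 214 FPKM in skip-S. AHG1 (AT5G51760), a phosphatase that holds abscisic acid signalling down and is best known from seeds, was listed at 5.57 FPKM in skip-S, against 1.404 FPKM in WT-S, and 1.55 FPKM in WT-S, against 0.267 FPKM in WT-0, the lowest skip-S level of all members. SNRK2.7 (AT4G40010), a kinase related to those of abscisic acid signalling, had log2 ratios of 1.21 for skip and 1.69 for salt. AGC2-1 (AT3G25250), a kinase induced by oxidative signals, was listed at 118 FPKM in skip-S, against 47.9 FPKM in WT-S, and 52.9 FPKM in WT-S, against 4.46 FPKM in WT-0. BSMT1 (AT3G11480), which methylates salicylic and benzoic acid, was listed at 19.2 FPKM in skip-S, against 3.42 FPKM in WT-S, and 3.78 FPKM in WT-S, against 0.457 FPKM in WT-0. GA2OX2 (AT1G30040), which inactivates gibberellins, and the amidohydrolases ILL6 (AT1G44350) and IAR3 (AT1G51760), which cleave hormone conjugates, had skip ratios of 1.31, 1.07 and 1.01. IDA (AT1G68765), the peptide signal of floral organ shedding, was listed at 0.2105 FPKM in WT-0 and had 1.73 for skip. AT2G41730, annotated as a calcium-binding site protein, was the most abundant of this role, with 214 FPKM in skip-S, against 36.2 FPKM in WT-S, and 40.03 FPKM in WT-S, against 3.798 FPKM in WT-0. PP2C5 and the protein kinase genes AT5G24080 and AT1G69790 complete the role, and AT5G24080 had the sixth largest salt ratio of the members at 3.51.

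Nucleotide-binding and protein-quality genes numbered 9. AT2G18193, annotated among the nucleoside triphosphate hydrolases, was listed at 242 FPKM in skip-S, against 47.6 FPKM in WT-S, and 52.6 FPKM in WT-S, against 5.29 FPKM in WT-0. Its neighbour AT2G18190 was far lower, with 10.9 FPKM in skip-S, against 1.85 FPKM in WT-S, and 2.05 FPKM in WT-S, against 0.0939 FPKM in WT-0, while the log2 ratios for skip were close at 2.32 and 2.06. AT3G28580, AT1G43910 and AT4G16680 carry the same annotation, with skip ratios of 1.56, 1.53 and 2.03. AtCDC48B (AT3G53230), an ATPase that pulls proteins from complexes for degradation, had 1.09, and G18F, an autophagy protein, had 1.22. AT5G37490 and AT5G55150, with armadillo repeats and an F-box, were at 4.84-fold and 4.72-fold for skip on the FPKM + 1 scale. They were listed at 14.2 and 10.2 FPKM in skip-S, against 2.13 and 1.38 FPKM in WT-S. At such levels the added 1 makes the fold smaller.

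In metabolism and the cell wall, 8 members had skip ratios between 1.01 and 1.38. AT5G15950, an adenosylmethionine decarboxylase of polyamine synthesis, was listed at 129.6 FPKM in skip-S, against 49.3 FPKM in WT-S, and 54.5 FPKM in WT-S, against 23.4 FPKM in WT-0. AT2G32020, an acyltransferase gene, had the fourth largest salt ratio of the members, 3.76, and a skip ratio of 1.29. PAP17 (AT3G17790), a purple acid phosphatase, and PLDP2 (AT3G05630), a phospholipase D, both known from phosphate starvation, had 1.01 and 1.25 for skip and 2.16 and 1.62 for salt. TPS04, a terpene synthase that makes geranyllinalool, TBL37, ACR8 and AT2G32030 were the others.

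A further 12 members had other annotations, with skip ratios from 1.02 to 1.74. Among them ECT8 (AT1G79270), a reader of methylated adenosine in RNA, was listed at 123 FPKM in skip-S, against 59.7 FPKM in WT-S, and 65.9 FPKM in WT-S, against 20.5 FPKM in WT-0. AT4G21020, a LEA family gene, was listed at 6.51 FPKM in skip-S, against 2.69 FPKM in WT-S, and 2.98 FPKM in WT-S, against 0.869 FPKM in WT-0. BPS3 (AT4G01360) and EDA12 (AT2G35950) had salt ratios of 2.68 and 2.36. AT1G32880, next to NAC13 on the opposite strand, overlaps its annotated gene by 20 bases. The labels do not give the strand setting of the libraries, so reads of this overlap cannot be told apart. The others were AT5G13210, AT1G61470, AT5G15500, AT5G40690, AT5G41550, AT4G26950 and AT1G69610.

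Genes without an assigned function were also 12, of which 10 are annotated as uncharacterized and AT1G29951 and AT4G25692 have no entry in the annotation used. AT5G24640 had the largest salt ratio of all 88 members, with 98.97 FPKM in skip-S, against 27.6 FPKM in WT-S, and 30.5 FPKM in WT-S, against 0.416 FPKM in WT-0. AT4G12735 combined large steps in both comparisons, with 176 FPKM in skip-S, against 29.97 FPKM in WT-S, and 33.1 FPKM in WT-S, against 1.73 FPKM in WT-0. AT3G45730 was listed at 55.9 FPKM in skip-S, against 7.75 FPKM in WT-S, and 8.57 FPKM in WT-S, against 3.23 FPKM in WT-0, with 2.70 for skip and 1.18 for salt. AT4G08555 reached 139 FPKM in skip-S, and AT3G25573, AT2G38823, AT4G28460, AT2G23270, AT4G37030 and AT4G24410 stayed below 25 FPKM there, as did AT1G29951 with 7.52 FPKM and AT4G25692 with 11.7 FPKM. The mitochondrial dysfunction letters were found in 6 of the 10 promoters of this role, AT4G12735, AT5G24640, AT3G25573, AT2G38823, AT4G08555 and AT4G28460. By role, the letters were also found in 5 of 13 promoters for transport and detoxification, 5 of 9 for nucleotide-binding and protein-quality genes, 3 of 12 for hormones and signalling, 2 of 5 for mitochondria, 4 of 12 for other annotations, 1 of 8 for metabolism and the cell wall, 1 of 15 for transcription factors and 0 of 2 for the early light-induced proteins.

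The members were also counted among the salt-raised genes of other stress-related families, beside the 4.99% of all salt-raised genes that were members. Of 31 LEA and dehydrin genes at 5 FPKM, 20 were salt-raised and 0 were members. Of the same 31, 4 were at least 2-fold lower in skip-S, beside 4.76% of all 15974 genes and 13.9% of the salt-raised genes. That list went by gene symbols and so did not hold the member AT4G21020. Of the 11 JAZ repressors of jasmonate signalling, 8 were salt-raised and 0 were members. Heat shock factors and chaperones gave 0 members of 13 salt-raised genes, and the list of calmodulin-like and other calcium-binding proteins 0 of 22. The latter list did not hold the member AT2G41730, annotated as a calcium-binding site protein. All 9 clade A PP2C phosphatases were salt-raised, and AHG1 was the single member. Among factor families, members were 1 of 22 salt-raised NAC genes, 1 of 19 WRKY genes, 1 of 26 MYB genes, 1 of 6 ZAT and AZF genes and 2 of 36 ERF and DREB genes. UGT glycosyltransferases gave 2 of 17, tau class glutathione S-transferases 1 of 8, protein kinases 4 of 94, ABC transporters 1 of 12, MATE carriers 1 of 9, cytochromes P450 1 of 14 and ubiquitin ligases 1 of 44. These counts are too small to set any of the families apart. Trehalose and raffinose synthesis, abscisic acid synthesis and breakdown, and indole and camalexin enzymes had 0 members, of 6, 4 and 1 salt-raised genes, and ubiquitin and proteasome subunits had 0 salt-raised genes of 49.

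Single-exon genes had about the same share among the members as among the other salt-raised genes. Of the 86 annotated members, 27 had a single exon, or 31.4%, against 29.1% of the other salt-raised genes and 14.1% of all 15929 annotated genes at 5 FPKM. Genes higher in skip but not salt-raised had a share of 13.1%, and salt-raised genes lower in skip 38.4%. The median exon number was 2.5 in members, 3 in the other salt-raised genes and 5 in all genes, with median transcript lengths of 1616, 1593 and 1711 nt.

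**Figure D5:**
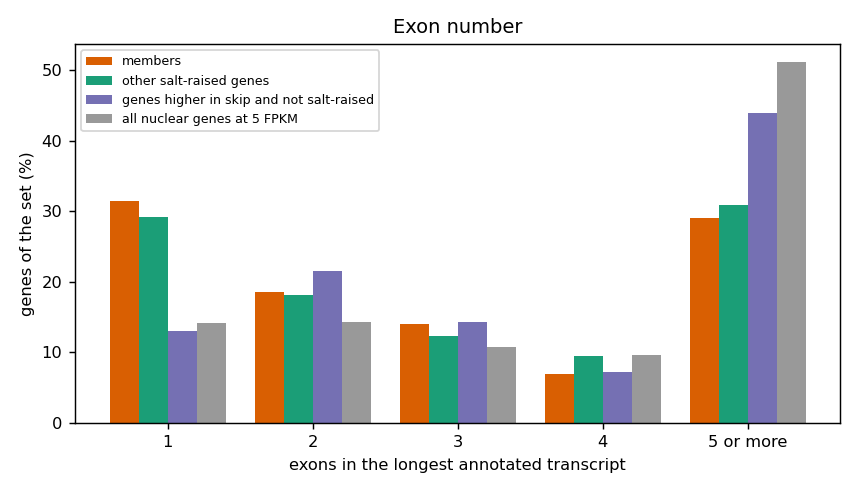
Share of genes (y axis, %) by the number of exons in the longest annotated transcript (x axis), for members, other salt-raised genes, genes higher in skip but not salt-raised, and all nuclear genes at 5 FPKM. Members and other salt-raised genes stand side by side at 31.4% and 29.1% for a single exon, and genes higher in skip but not salt-raised stand near all genes, at 13.1% and 14.1%.

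On the chromosomes, 5 pairs of members were direct neighbours among protein-coding genes. These were NAC13 with AT1G32880, AT2G18190 with AT2G18193, the acyltransferase genes AT2G32020 and AT2G32030, BLH1 with EDA12, and the metal transport family genes AT5G52750 and AT5G52760. The members of such a pair may share regulation, which was not tested, and may not be independent of each other. Stretches of 50 bases shared within a pair were found only for AT2G18190 and AT2G18193, at no more than 2.63% and 2.6% of their stretches. BLH1 and EDA12 lie 12300 bases apart on opposite strands. Within 3 pairs the genes carry the same or a related annotation and lie 538 to 1711 bases apart on the same strand.

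Near the limits of the rule, the nearest members and non-members hardly differed. For skip, IAR3, PAP17 and PP2C5 stood inside at 1.01 each, and AT1G69480, EDA39 and AT5G13370 outside at 0.997, 0.995 and 0.987. For salt, BBX32, AHG1 and AT4G24410 stood inside at 1.004, 1.009 and 1.013, and AT3G25610, ABCB11 and AT5G51440 outside at 0.99, 0.96 and 0.96. For the level, AHG1, TPS04 and AT5G41550 stood inside with highest values of 5.57, 5.79 and 5.94 FPKM. The 2 genes that met both ratios and missed the level, AT2G03230 and AT1G34050, had highest values of 3.88 and 3.28 FPKM.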

How the data were processed

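RNA of seedlings was measured in 3 groups, with 1 value per gene in each of 2 deposited tables. TopHat, Cufflinks and TAIR10 were used per the submitters' processing notes, without versions. The tables state no unit, and the deposited values were read as FPKM made by the authors, inferred from the values and tools. The sources used here do not say how replicates were merged.

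Ratios of FPKM + 1 were formed within a table with pandas 2.3.3, with no test and no p-value. The members and lists were chosen with earlier results of these data known. The patterns of 2 of the 22 lists were corrected after false matches, and roles were assigned after values had been seen. Genes named by rule were the 15 largest ratios per comparison, the 10 highest skip-S levels, list members, neighbours and those nearest the limits. The others were named after their values were seen, so that every member is accounted for. RefSeq TAIR10.1 matched 32810 of 33557 ids. Coordinates are those of TAIR10.1, and none came from the tables. Depth was estimated from low values of genes with 1 transcript over 800 nt. Of values between 0.5 and 3.5 steps, 67.2% (skip-S), 70.7% (WT-S, each table) and 55.1% (WT-0) lay within 0.15 of whole steps. The step and a length offset were chosen to make these shares largest, so the 30% of evenly spread values is not their chance level. Whole reads were not recovered and no count test was run. These estimates give rough fragment numbers only and do not cover the spread between replicates. The rule was run on simulated data in which genes with 5 FPKM or more in WT-0 were raised 4-fold in both ratios. That checks the code and not the members, whose median in WT-0 was 2.56 FPKM and whose ratios reach down to the limit. Alternatives were other pseudocounts, other limits on FPKM, centring, and other promoter windows, strands and backgrounds. The sequence of 1 promoter is not reported here.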

Additional observations from a re-analysis of the deposited data

How the results depend on the processing

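No paired analysis was possible because each column merges the replicates of its group, and no replicate could be left out for the same reason. The number of members, 88, was 120 with a pseudocount of 0.1, 90 without a limit on FPKM, 74 with a limit of 10 FPKM and 98 after centring both ratios on the median gene, of which 88, 88, 74 and 87 were among the 88. It was 38 with a pseudocount of 5. The share of salt-raised genes that were members, 4.99%, was 6.19% with a pseudocount of 0.1 and 3.04% with 5. With the members kept, a pseudocount of 5 gave medians of 1.07 for skip and 1.04 for salt, and 0.1 gave 2.15 for salt. On the gene strand alone, motif shares of members were 39.5% for ACGTG, 10.5% for CCGAC, 40.7% for TTGAC and 0% for AAAATATCT, by construction lower than on both strands. With the other salt-raised genes in place of all promoters as background, the excess of members was 8.46 in place of 25.7 percentage points for ACGTG, 5.85 in place of 16.2 for CACGTG, and for CCGAC it reversed to -0.58 in place of 4.72. Alternatives chosen after seeing the data gave 82.6% for TTGAC with 500 bases, and for the mitochondrial dysfunction motif 19.8% with 2 more bases (CTTG, 5 free bases, CANG), against 2.08% of all promoters. With 500 bases its share was 37.2%, against 16.6% of all promoters, and without windows that overlap another gene it was 27.1%, against 8.81%. The cause of these shifts was not tested. Low levels in WT-0 limit the salt ratios: 29 members were below 1 FPKM there, and the number of reads behind these values is not known.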

Other observations

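After the promoters had been seen, the form of the mitochondrial dysfunction motif that reads alike on both strands, CTTG, 5 free bases, CAAG, was counted in the same windows. It was found in 11 of 86 member promoters, or 12.8%. Among the other salt-raised genes it was found in 13 of 1637 promoters (0.794%), among salt-raised genes lower in skip in 6 of 227 (2.64%), among genes higher in skip but not salt-raised in 12 of 224 (5.36%), and among all promoters in 236 of 27443 (0.860%). The form was chosen after the matches had been seen, so these shares describe the same promoters and are no second line of evidence.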
